A study of Mus musculus with 14 samples.

Results

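The comparison described here sets regulatory T cells (Tregs) with a floxed interleukin-23 receptor gene against Tregs with the wild-type gene, both sorted from tumors. It uses 7 of the series' 14 bulk RNA-seq libraries: 3 labelled Flox (strain B6.IL23RFlox FoxP3Cre-YFP) and 4 labelled WT (strain B6.IL23RWT FoxP3Cre-YFP). All mice, controls included, carried the FoxP3Cre-YFP allele, in which Cre recombinase and a yellow fluorescent protein are made in cells that express Foxp3, and the cells were sorted on that fluorescence. All mice also bore a flank tumor of MC38, a mouse colon adenocarcinoma line, and were taken at endpoint. The remaining 7 libraries, with the same labels, are splenic Tregs (3 Flox, 4 WT) and serve here only to show where the tumor differs. Age and sex of the mice and any pooling were not given in the sources used here. Nothing in the labels says that the replicates came from separate animals, so each p-value reflects only library-to-library spread, which may be technical. Libraries were assigned by their labels, and only genes on autosomes entered the counts of genes, for a reason given below.

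Tregs are CD4 T cells that restrain immune responses and depend on the transcription factor Foxp3. Interleukin-23 (IL-23) binds a receptor made of IL-23R and the shared chain IL-12Rb1, which signals through the kinases Jak2 and Tyk2, chiefly to Stat3. The related cytokine IL-12 uses IL-12Rb1 with IL-12Rb2 and signals chiefly to Stat4. In tumors, Tregs that lose Foxp3 or Helios (Ikzf2), or that take up T-bet (Tbx21) and interferon-gamma (Ifng), are usually called unstable. The series' title speaks of such loss of stability after an antibody against the receptor. The labels of the libraries compared here name no antibody, so the contrast is one of genotype.

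The counts of Il23r itself went against the labels. Values below are CPM (counts scaled to the library total after trimmed-mean adjustment), always listed as Flox-labelled replicates 1 to 3 against WT-labelled replicates 1 to 4. Il23r (chromosome 6, 67422932 to 67491855, GRCm38) had 0.369, 0.809 and 0.586 CPM against 0, 0.193, 0 and 0 CPM. That was 17 counts in the 3 Flox-labelled libraries and 2 in the 4 WT-labelled, both of them in WT-labelled replicate 2, a ratio per count sequenced of 10.3 (95% limits 2.44 to 91.6, for counting error only). The groups did not overlap (exact two-sided permutation p = 0.0286, the smallest p that 35 splits allow). A library with no count could still hold up to 3 counts, or 0.292 to 0.436 CPM at these depths, so the level was near the detection limit everywhere. In spleen the counts per library were 1, 0 and 9 against 0, 0, 2 and 0, so the groups overlapped and most counts came from Flox-labelled replicate 3. The totals there were 10 against 2 counts (ratio 5.998, 95% limits 1.28 to 56.3 for counting error only, exact permutation p = 0.371). The sources used here do not say which exons the allele flanks, and counts per gene do not separate a deleted exon from the rest. For these reasons the groups are called Flox-labelled and WT-labelled throughout.

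The sex-linked genes divided the libraries the same way as the labels. Xist, the RNA that coats the inactive X chromosome, had 2.95, 1.39 and 2.05 CPM against 119, 50.8, 499 and 448 CPM. The Y-linked gene Uty had 62.5, 27.7 and 259 CPM against 0.169, 0.193, 0 and 0.211 CPM, and Kdm5d and Eif2s3y were likewise higher in all 3 Flox-labelled libraries. Ddx3y, also Y-linked, had 289, 398 and 569 CPM against 0.339, 113, 0 and 0.317 CPM, so WT-labelled replicate 2 held both Xist and Ddx3y reads while its Uty, Kdm5d and Eif2s3y stayed below 0.3 CPM. In spleen, WT-labelled replicate 2 also held Ddx3y reads, at 33.04 CPM where the other three WT-labelled libraries had 0.338 to 0.686 CPM. Genotype label and sex-linked reads, and so possibly the sex of the mice, therefore cannot be told apart in any result below. Leaving out the X- and Y-linked genes does not separate them in the autosomal genes. Of 10777 genes tested, 347 were sex-linked and were left out of the counts, and 10165 were autosomal.

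Library totals in the tumor ran from 6876211 to 10289905 counts, with 12703 to 13773 autosomal genes detected per library. Replicates differed far beyond sampling noise: the chi-square per degree of freedom between 2 libraries of 1 group was 184 to 391. The common biological coefficient of variation was 0.852, and 1 of the 7 libraries held more than 50% of the summed CPM for 21.7% of the autosomal genes tested. Each library was that one for 263 to 365 genes.

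No autosomal gene passed edgeR's quasi-likelihood test at an adjusted p of 0.05 (0 of 10165, 0.00%). At an unadjusted p under 0.05 there were 816 genes (8.03%), of which 508 (5.0%) were higher and 308 (3.03%) lower in the Flox-labelled libraries. Leaving out Flox-labelled replicate 1, 2 or 3 left 136, 150 or 112 lower genes at that p, and leaving out WT-labelled replicate 4 left 322 higher ones. The groups did not overlap for 524 genes (5.15%), 250 higher (2.46%) and 274 lower (2.70%). If labels had no bearing on a gene, 1 of 35 splits (0.0286) would give no overlap in each direction. Neither share exceeded that, so a lack of overlap alone does not mark a gene as different. The log2 difference, Flox-labelled minus WT-labelled as everywhere below, was above 0 for 47.0% of the genes and had a median of -0.057. DESeq2 called 255 genes (2.51%), 143 higher (1.41%) and 112 lower (1.10%), while limma's voom with quality weights called 1 gene (0.00984%). DESeq2 gave no adjusted p for 3711 of the 10165 genes, which count as not called in its shares. Of the 255, 252 were also at an unadjusted p under 0.05 in edgeR, and 111 had groups that did not overlap (70 higher, 41 lower). For 173 of them 1 library held more than 50% of the summed CPM. The median standard error of a log2 difference was 0.744, so the 95% limits of a typical gene reached 3.33-fold to either side. When 200 genes were changed in simulated counts of the same depth and spread, edgeR recovered 0% of 4-fold, 2% of 8-fold and 2% of 16-fold changes, with the right sign in 98 to 100% of them. The text below therefore gives levels and intervals for each gene group.

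Foxp3 was present in all 7 libraries, which matches the sort. This X-linked transcription factor had 104, 142 and 106 CPM against 85.3, 207, 106 and 119.6 CPM, with a log2 difference of -0.14 ± 0.54. The groups overlapped fully, and without WT-labelled replicate 2 the difference was 0.18. Ikzf2, which encodes Helios, was among the more precisely measured genes at 2596, 2819.8 and 2177 CPM against 3453, 2854, 3708 and 2325 CPM, or 2531 ± 326 CPM (SD, n = 3) against 3085 ± 620.4 CPM (SD, n = 4). Its log2 difference of -0.29 ± 0.24 (95% limits -0.84 to 0.26) excluded a fall of 2-fold. The related factor Eos (Ikzf4) had 56.3, 41.4 and 23.1 CPM against 131, 245, 58.6 and 27.4 CPM and a wide difference of -1.52 ± 0.87, since its WT-labelled values spread from 27.4 to 245 CPM.

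Surface molecules of Tregs had overlapping values as well. Il2ra, the high-affinity IL-2 receptor chain CD25, had 886, 1418 and 818 CPM against 2154, 1356, 1661 and 1085 CPM, a log2 difference of -0.59 ± 0.36. Flox-labelled replicate 2 lay inside the WT-labelled range and the other two Flox-labelled libraries below it. Ctla4, an inhibitory receptor through which Tregs strip costimulatory ligands, had 722, 491 and 683 CPM against 1902, 587, 1527 and 573 CPM. WT-labelled replicates 1 and 3 were high, while replicates 2 and 4 lay within the Flox-labelled range, and the difference was -0.86 ± 0.53. Lrrc32, which anchors latent TGF-beta on the Treg surface, had 45.1, 66.4 and 55.05 CPM against 81.7, 93.97, 62.98 and 82.2 CPM (-0.53 ± 0.51), with only Flox-labelled replicate 2 reaching into the WT-labelled range. Tnfrsf18 (GITR), a costimulatory receptor, had nearly equal values at 109, 129.5 and 101 CPM against 103, 132, 105 and 123 CPM (-0.034 ± 0.48), and without Flox-labelled replicate 3 or WT-labelled replicate 2 or 4 its sign turned (0.057, 0.034 and 0.017). Nrp1, a semaphorin coreceptor of Tregs, ran from 28.6 CPM in WT-labelled replicate 1 to 1163 CPM in Flox-labelled replicate 1, with a difference of 1.28 ± 1.01. Itgb8, the integrin chain that activates latent TGF-beta, had 79.9, 26.7 and 12.01 CPM against 15.6, 12.1, 13.5 and 11.7 CPM (1.58 ± 0.68). Its difference came from Flox-labelled replicates 1 and 2, since replicate 3 lay inside the WT-labelled range. For these 6 surface genes the adjusted p in edgeR was 0.584 to 0.992.

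Among suppressive mediators, Il10 had 184, 87.1 and 90.8 CPM against 36.4, 67.7, 205 and 59.4 CPM. WT-labelled replicate 3 was the highest library and WT-labelled replicate 1 the lowest, so the groups overlapped, and the difference of 0.39 ± 0.75 became -0.046 without Flox-labelled replicate 1. Tgfb1, the cytokine TGF-beta1, was even across libraries at 48.8, 52.7 and 38.2 CPM against 44.6, 50.9, 53.97 and 50.7 CPM (-0.10 ± 0.49, or 0.033 without Flox-labelled replicate 3). Ebi3, a subunit of the cytokine IL-35, had 11.8, 5.78 and 4.002 CPM against 4.92, 6.27, 3.05 and 5.18 CPM (0.57 ± 0.47). Entpd1 (CD39), which breaks down extracellular ATP, had 117, 111 and 87.7 CPM against 45.8, 109.8, 93.5 and 53.4 CPM (0.47 ± 0.56). Adjusted p-values in edgeR were 0.737 to 0.971 for these 4 mediators.

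**Figure D1:**
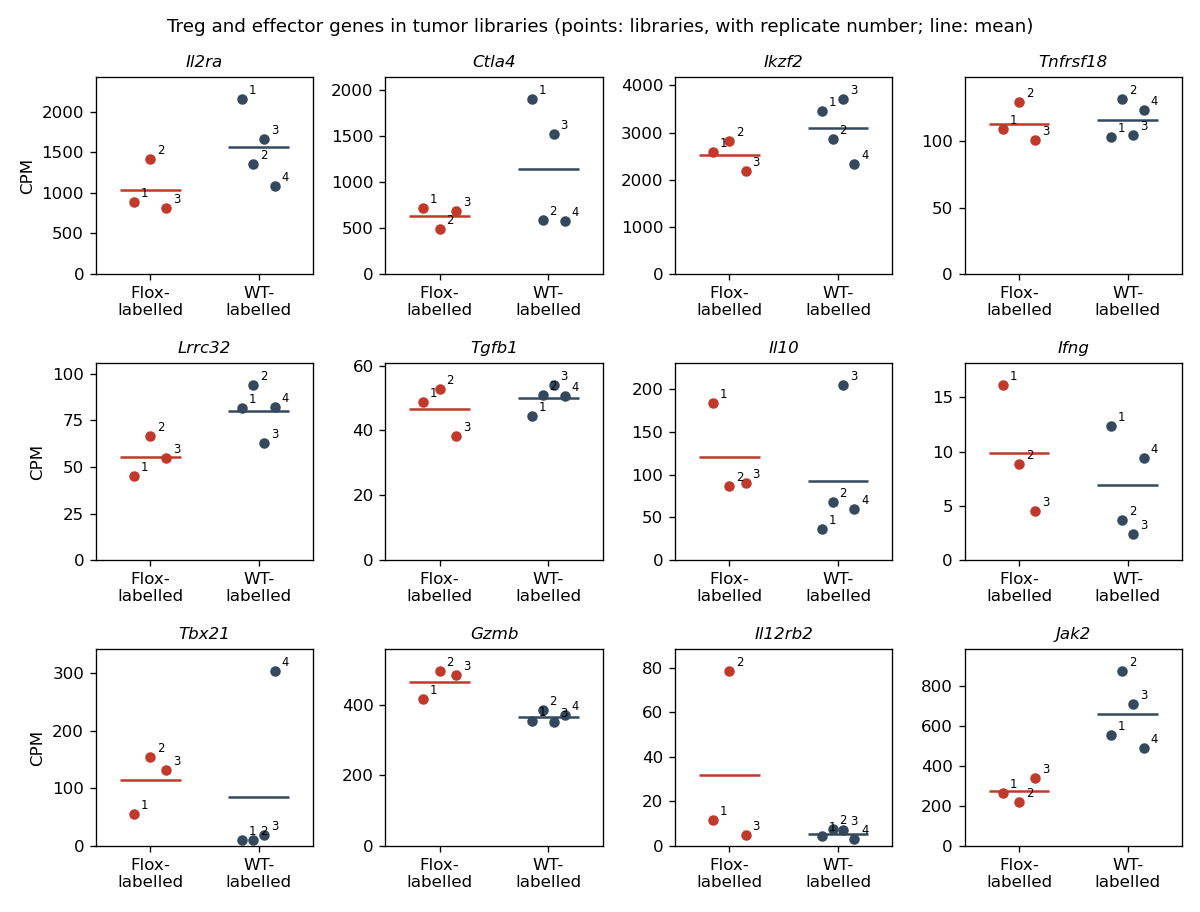
Levels of the Treg stability genes in each tumor library: the vertical axes are CPM from 0, each point is 1 library marked with its replicate number, and the line is the group mean (3 Flox-labelled, 4 WT-labelled). For Ctla4, Il10 and Ifng the points of the groups intermix, while Gzmb is higher and Jak2 lower in all 3 Flox-labelled libraries.

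The wider list of Treg identity and suppression genes had 29 autosomal members tested. None was called, 9 were higher and 20 lower, and the median log2 difference was -0.23, beside -0.057 over all autosomal genes. Plagl1 and Stat5a were the 2 of 29 members without overlap between the groups, both lower in the Flox-labelled libraries, beside 2.70% of all autosomal genes. Stat5a, the transcription factor that carries the IL-2 signal to Foxp3, had 19.4, 21.7 and 21.4 CPM against 28.8, 78.9, 80.4 and 28.1 CPM (-1.38 ± 0.64; adjusted p = 0.584 in edgeR). Socs2, a cytokine-signalling inhibitor induced by Stat5, had 129.8, 38.2 and 42.7 CPM against 559, 129, 156 and 198 CPM (-1.89 ± 0.81), where Flox-labelled replicate 1 reached the lowest WT-labelled value. A list of IL-2 and Stat5 response genes had 7 members higher and 15 lower of 22, with a median of -0.16. Its summed level was 15268 to 15666 CPM among Flox-labelled libraries and 15794 to 16156 CPM among WT-labelled ones, a small gap without overlap. Among the 30 lists, only these sums and those of the B and plasma cell markers kept the groups apart, and no sum was tested. The list of effector and tumor Treg genes was evenly divided, 16 higher and 16 lower of 32, with a median of -0.0070 and no member without overlap. Dgat1, a triglyceride-synthesis enzyme on that list, had 13989.6, 12750.3 and 18473 CPM against 25656, 16369, 19575 and 16268 CPM (-0.37 ± 0.20). Its groups overlapped. Cd83, an activation marker, had 10.5, 7.86 and 17.4 CPM against 8.305, 184, 20.02 and 30.5 CPM (-2.35 ± 1.15), with 66.04% of the summed CPM in WT-labelled replicate 2.

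The intervals show what these libraries can and cannot bound. Of the 27 stability and receptor genes chosen for full description that could be tested and are autosomal, 14 had a positive and 13 a negative difference. The 95% limits excluded a fall of 2-fold or more for 8 of them, a rise of 2-fold or more for 10, both for 1, and a change of 4-fold in either direction for 13. Over all autosomal genes the same shares were 29.1%, 31.5%, 3.37% and 38.6%. Only the limits of Jak2 and Il12rb2 excluded 0, against 8.03% of all genes, and neither passed the adjusted threshold.

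**Figure D2:**
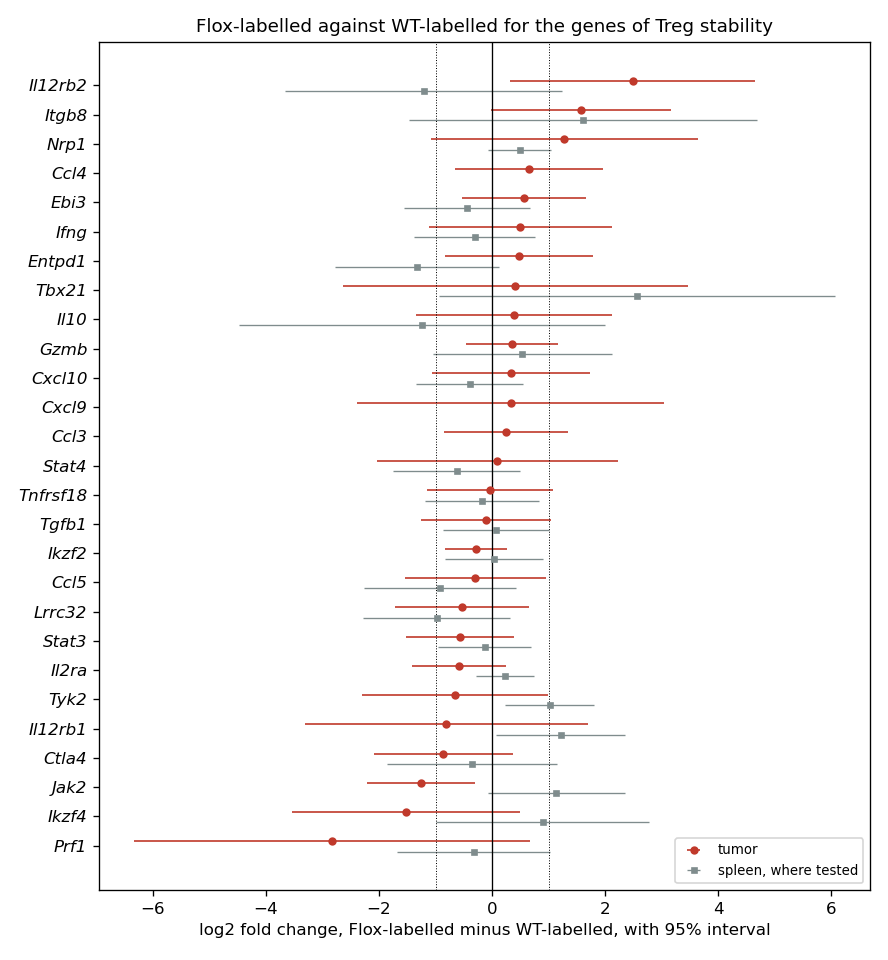
Log2 differences (Flox-labelled minus WT-labelled, horizontal axis) with 95% limits for the described autosomal stability and receptor genes, in tumor (circles) and, where tested, in spleen (squares), with dotted lines at 2-fold either way. Of the tumor intervals only those of Jak2 and Il12rb2 do not reach 0.

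Genes of the IL-23 and IL-12 receptors showed the clearest single difference in Jak2, the kinase bound to IL-23R. Jak2 had 268, 218 and 339 CPM against 555, 875, 711 and 492 CPM, or 275 ± 60.8 CPM (SD, n = 3) against 658 ± 171 CPM (SD, n = 4). All 3 Flox-labelled libraries lay below all 4 WT-labelled libraries, with a log2 difference of -1.26 ± 0.41 (95% limits -2.21 to -0.31; adjusted p = 0.584 in edgeR, 0.0107 in DESeq2). Its partner Tyk2 had 319.6, 370.4 and 537 CPM against 1572, 327, 400.4 and 269 CPM, and without the high WT-labelled replicate 1 its difference of -0.65 ± 0.71 turned to 0.32. The shared chain Il12rb1 had 35.9, 205 and 42.1 CPM against 16.1, 228, 106 and 313 CPM (-0.81 ± 1.07), with low and high libraries in both groups.

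Il12rb2, the IL-12 receptor's own chain, had 11.6, 78.5 and 5.17 CPM against 4.58, 7.62, 7.16 and 3.17 CPM and a log2 difference of 2.49 ± 0.93 (95% limits 0.32 to 4.66). Flox-labelled replicate 2 alone held 66.6% of the summed CPM, and without it the difference was 0.57. The gene lies on chromosome 6 (67285986 to 67376293), 46.6 kb before the start coordinate of Il23r, and its far end overlaps Serbp1, whose reads the sources used here do not say were separated by strand. Serbp1, an RNA-binding protein gene that ends 134 kb before Il23r, had 302, 516 and 322 CPM against 196, 177, 589.8 and 257 CPM (0.32 ± 0.57). Gadd45a (-0.58 ± 0.76) and Gng12 (0.12 ± 0.36), further along the same side, also had overlapping groups, while the next, Gm9794 (-0.17 ± 0.48), was lower without overlap. On the other side the nearest tested gene was Igkc, 3235 kb past the end of Il23r. Of the 5 nearest tested genes there, Krcc1 (0.61 ± 0.42) was higher without overlap, and Eif2ak3, the stress kinase PERK (3.31 ± 1.22), overlapped but had an unadjusted p of 0.0275. So 2 of 10 neighbours did not overlap, where 5.15% of all autosomal genes did not, and the 2 went opposite ways. These neighbours were looked at after the other results were seen.

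The downstream factors Stat3 and Stat4 did not separate the groups. Stat3, the main IL-23 effector, had 492, 677 and 379 CPM against 450.3, 902, 806 and 911 CPM (-0.57 ± 0.41). Stat4 had 14.3, 11.8 and 73.4 CPM against 27.3, 12.6, 68.6 and 16.2 CPM (0.090 ± 0.91), with 1 high library in each group, and its sign turned without Flox-labelled replicate 3 (-1.24) or WT-labelled replicates 2 (-0.17) or 4 (-0.10). Over the 17 tested genes of IL-23, IL-12 and IL-6 receptor signalling, 6 were higher and 11 lower, with a median of -0.20. Jak2 was the 1 member of 17 without overlap, a share near the 5.15% of all autosomal genes.

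Of the T helper 1 and cytotoxic genes, Gzmb, the serine protease granzyme B, was higher in every Flox-labelled library. Gzmb had 416, 496 and 484 CPM against 355, 385, 350.1 and 371 CPM, or 465 ± 42.9 CPM (SD, n = 3) against 365 ± 15.7 CPM (SD, n = 4). The log2 difference was 0.35 ± 0.35 (95% limits -0.47 to 1.17; adjusted p = 0.7896 in edgeR), so the gap was small beside the spread that edgeR assigned to genes of this level. Prf1, the pore-forming partner of granzymes, had 14.8, 26.6 and 10.2 CPM against 430.3, 36.9, 8.35 and 14.9 CPM, with 79.4% of the summed CPM in WT-labelled replicate 1 and a difference of -2.83 ± 1.5. Ifng, the cytokine interferon-gamma, was low at 16.1, 8.897 and 4.49 CPM against 12.4, 3.67, 2.39 and 9.41 CPM. The highest values were Flox-labelled replicate 1 and WT-labelled replicate 1, and the difference of 0.50 ± 0.69 turned to -0.047 without the former. Tbx21, which encodes T-bet, had 55.9, 154 and 131 CPM against 11.4, 10.03, 18.4 and 303 CPM (0.41 ± 1.31). All 3 Flox-labelled libraries exceeded WT-labelled replicates 1 to 3, but WT-labelled replicate 4 was the highest of all 7 libraries.

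The T helper 1 and cytotoxic list as a whole had 18 members higher and 5 lower of 23, with a median of 0.35, beside 47.0% higher among all autosomal genes. Gzmb and the lysosomal protease gene Ctsw (-1.16 ± 0.47) were the 2 of 23 members without overlap, in opposite directions, beside 5.15% of all autosomal genes. At an unadjusted p under 0.05 there were 3 higher members and 1 lower, beside 5.0% and 3.03% of all autosomal genes. The lower one was Ctsw, and each of the higher ones rested on 1 library. Il12rb2 is given above. Cx3cr1, a chemokine receptor of effector cells, had 142, 4.74 and 2.24 CPM against 6.44, 4.63, 1.59 and 2.96 CPM, with 86.2% in Flox-labelled replicate 1 and a difference of 3.66 ± 1.40 that became -0.15 without it. Il18rap, a chain of the IL-18 receptor, had 2.58, 1.85 and 130.3 CPM against 5.42, 2.41, 2.12 and 3.17 CPM, with 88.1% in Flox-labelled replicate 3 and a difference of 3.77 ± 1.45 that became -0.54 without it. The list's summed level was 1809 to 1964 CPM among Flox-labelled libraries and 1249.9 to 2286 CPM among WT-labelled ones, with every Flox-labelled sum inside the WT-labelled range.

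The T helper 17 cytokine genes Il17a and Il17f were at or near the detection limit. Il17f had 0 counts in all 7 libraries, which allows up to 0.292 to 0.436 CPM per library. Il17a had 0, 0.116 and 0 CPM against 0, 0, 0.133 and 0.529 CPM and did not pass the filter for testing. Of 18 genes on the list, 9 were tested, 3 higher and 6 lower, with a median of -0.39. Irf4, a factor shared by T helper 17 cells and effector Tregs, had 26.7, 25.2 and 22.4 CPM against 23.9, 35.8, 259 and 24.3 CPM and 62.04% of its summed CPM in WT-labelled replicate 3, the library that also held 79.9% for the IL-33 receptor Il1rl1 (8.48, 7.28 and 19.6 CPM against 22.2, 18.7, 396 and 23.2 CPM). Hif1a, the hypoxia-induced factor, had 2464, 2597 and 1636 CPM against 4712, 1871, 2211 and 4560.3 CPM (-0.58 ± 0.40), with overlapping groups.

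Chemokine ligands, which draw other leukocytes into the tumor, gave 10 higher and 2 lower members of 12 tested, with a median of 0.44, but none without overlap. Ccl4 had 92.9, 108 and 74.1 CPM against 85.4, 68.4, 36.3 and 41.8 CPM (0.66 ± 0.56), with WT-labelled replicate 1 inside the Flox-labelled range. Ccl3 had 17.2, 22.1 and 20.98 CPM against 21.5, 13.6, 9.94 and 22.6 CPM (0.25 ± 0.47) and Ccl5 had 37.5, 49.1 and 39.4 CPM against 70.7, 52.9, 31.96 and 50.5 CPM (-0.29 ± 0.54). The interferon-induced ligands were variable: Cxcl9 ran from 0.211 to 10.2 CPM and Cxcl10 from 20.3 to 69.4 CPM, and both differences (0.33 ± 1.17 and 0.34 ± 0.60) turned sign without Flox-labelled replicate 3 (-0.96 and -0.13), Cxcl9 also without WT-labelled replicate 4 (-0.044). Cxcl2, a neutrophil attractant, had 59.5% of its summed CPM in Flox-labelled replicate 3. Adjusted p-values in edgeR for these 6 ligands were 0.584 to 0.957.

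The autosomal gene with the smallest p was Ankrd55, a gene for an ankyrin-repeat protein of poorly known function. It had 105, 61.1 and 160.3 CPM against 0.847, 1.06, 1.06 and 0.7402 CPM, a log2 difference of 6.85 ± 0.68 (adjusted p = 0.133 in edgeR, 0.0287 in voom and 1.62e-28 in DESeq2). Every Flox-labelled library stood far above every WT-labelled one, so the difference had to stay positive without any 1 library. In spleen its difference was -0.086 ± 0.90, and the tumor difference exceeded it by 6.95 ± 1.21 (adjusted p = 0.395 in edgeR).

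Another 9 genes without overlap were named by rank of p among the higher ones. Mpp2, a scaffold protein gene, had 204, 65.5 and 247 CPM against 2.203, 2.89, 1.06 and 3.701 CPM (6.12 ± 0.82). Btbd2, a BTB-domain protein gene, had 138, 71.6 and 154 CPM against 6.61, 6.27, 3.58 and 4.65 CPM (4.51 ± 0.62). Dtl, a substrate receptor of the CRL4 ubiquitin ligase active in S phase, had 285, 195 and 179 CPM against 8.305, 13.7, 3.85 and 4.44 CPM (4.85 ± 0.71). These 3 genes were low but present in the WT-labelled libraries and far higher in all 3 Flox-labelled ones. Rflnb, a regulator of the cytoskeletal protein filamin, had 95.8, 72.6 and 54.4 CPM against 1.53, 4.73, 0.796 and 0.634 CPM (5.25 ± 0.90). Pnp, purine nucleoside phosphorylase, had 80.97, 78.7 and 169 CPM against 10.2, 12.1, 11.3 and 15.7 CPM (3.15 ± 0.58), and reads of its near-copy Pnp2 may not have been separated. Taok2 (a stress kinase; 3.33 ± 0.61), Slc38a2 (a neutral amino acid transporter; 3.04 ± 0.58) and Slc25a51 (the mitochondrial NAD carrier; 3.05 ± 0.58) were lower-ranked members of this group. Cd68, a lysosomal glycoprotein used as a macrophage marker, had 14.1, 14.8 and 27.8 CPM against 2.203, 2.798, 4.11 and 1.16 CPM (2.87 ± 0.54) and is taken up again with the cell markers. Adjusted p-values in edgeR for these 9 genes were 0.305 to 0.584, and in DESeq2 all were at or below 1.34e-05.

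Among the 10 lower genes with the smallest p, Ddx5 and Nucks1 were the abundant ones. Ddx5, an RNA helicase that also serves as a transcriptional cofactor, had 1527, 1320.0 and 1062 CPM against 5725, 2223, 2887 and 3793 CPM (-1.49 ± 0.36; adjusted p = 0.584 in edgeR and 0.00325 in DESeq2). Nucks1, a chromatin-bound DNA repair protein gene, had 311, 553 and 239 CPM against 1010.2, 1547, 999.8 and 981 CPM (-1.63 ± 0.43). In both, the lowest WT-labelled library was well above the highest Flox-labelled one. Fcho2, an endocytosis protein gene, had 12.5, 11.3 and 10.2 CPM against 71.2, 68.1, 37.1 and 42.1 CPM (-2.26 ± 0.56), and its values were tight within the Flox-labelled libraries. Map4k2, a kinase upstream of JNK, had 24.2, 28.2 and 14.4 CPM against 186, 74.9, 70.8 and 188 CPM (-2.55 ± 0.70).

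Dock5, a Rac exchange factor, had 0.8300, 0.578 and 0.488 CPM against 28.98, 11.7, 19.4 and 421 CPM (-7.54 ± 1.82), with 87.2% of the summed CPM in WT-labelled replicate 4. Pomk, a kinase of dystroglycan sugars, had 2.21, 1.73 and 0.878 CPM against 3.56, 201, 46.01 and 93.7 CPM (-5.73 ± 1.43), and Oard1, an ADP-ribose hydrolase, had 2.67, 3.47 and 3.42 CPM against 67.97, 135, 155 and 5.08 CPM (-4.83 ± 1.21). In the last pair 1 WT-labelled library lay close to the Flox-labelled ones. Eef1akmt2, a lysine methyltransferase, had 1.48, 1.96 and 1.27 CPM against 3.22, 32.1, 12.6 and 45.2 CPM (-3.88 ± 0.95). The small nucleolar RNA Snord17 (-3.59 ± 0.90) may share reads with its host gene, and Trim5 (-1.63 ± 0.41) with near-identical paralogs. Adjusted p was 0.584 in edgeR for all 10.

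**Figure D3:**
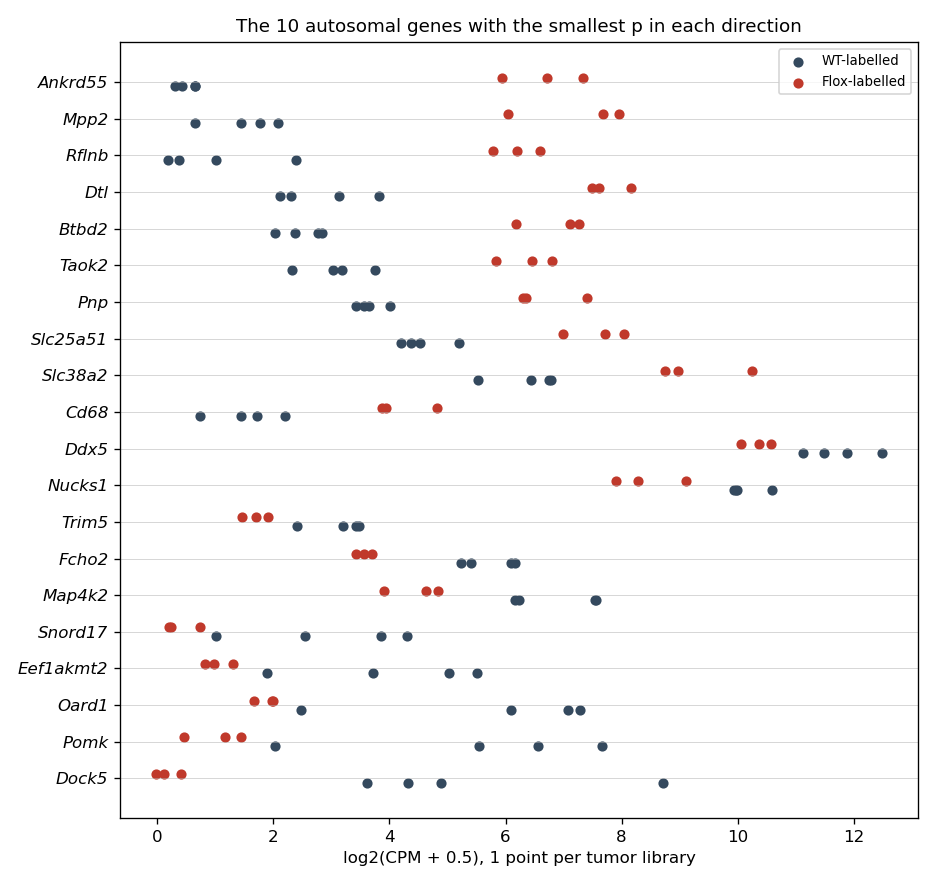
Levels of the leading autosomal genes in each of the 7 tumor libraries, on a log2(CPM + 0.5) axis; each point is 1 library, coloured by label. These genes were picked for a small p and for groups that do not overlap, so the separation seen is what the choice required.

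Type I interferon response genes had the highest number of members without overlap on the higher side, 4 of 37 (2.46% of all autosomal genes). On that list 27 were higher and 10 lower, with a median of 0.26. Oasl1, an antiviral regulator of translation, had 31.4, 178 and 16.2 CPM against 13.1, 5.21, 7.82 and 6.34 CPM (3.21 ± 0.93), with 68.97% in Flox-labelled replicate 2. Eif2ak2, the double-stranded RNA kinase PKR, had 86.5, 30.2 and 27.2 CPM against 23.9, 8.200, 22.9 and 10.5 CPM (1.55 ± 0.69). Ifit1 (1.07 ± 0.51) and Zbp1 (0.85 ± 0.53) were the others without overlap. Cmpk2, a mitochondrial nucleotide kinase, had 67.1, 9.36 and 17.4 CPM against 12.4, 7.81, 5.44 and 11.3 CPM (1.76 ± 0.74), where Flox-labelled replicate 2 lay inside the WT-labelled range. Of 32 interferon-gamma response genes, 19 were higher and 13 lower (median 0.14). Gbp4, a guanylate-binding GTPase, had 306, 85.2 and 421 CPM against 59.5, 73.3, 61.5 and 60.7 CPM (2.09 ± 0.63; adjusted p = 0.584 in edgeR and 0.0222 in DESeq2). Iigp1, an immunity-related GTPase, had 254, 434 and 71.2 CPM against 52.9, 54.3, 139 and 52.03 CPM (1.76 ± 0.75), and its groups overlapped.

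Cell cycle and DNA replication genes had 32 members higher and 18 lower of 50, with a median of 0.22. At an unadjusted p under 0.05 there were 6 higher and 1 lower, beside 5.0% and 3.03% of all autosomal genes. Groups did not overlap for 2 higher and 1 lower, a share near the 5.15% of all autosomal genes. Cdk1, the mitotic kinase, had 156, 57.7 and 9.96 CPM against 7.12, 5.596, 3.58 and 5.499 CPM (3.77 ± 0.91; 0.00112 adjusted p in DESeq2). Ccne1, cyclin E1, had 56.4, 4.04 and 55.8 CPM against 5.08, 4.44, 3.71 and 3.595 CPM (3.20 ± 0.84), and Cdt1, which licenses replication origins, had 139.6, 6.93 and 99.7 CPM against 10.8, 8.39, 6.100 and 13.4 CPM (3.08 ± 0.95). In the last pair Flox-labelled replicate 2 was level with the WT-labelled libraries and replicates 1 and 3 were far above them. Mcm5 (2.44 ± 0.83), a subunit of the replicative helicase, was the other higher member without overlap, and Tpx2 (-1.31 ± 0.54), a spindle factor, the lower one. For 10 of the 50 members 1 library held more than 50% of the summed CPM.

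Immediate early and heat shock genes lay mostly on the lower side, 23 of 26 with 3 higher and a median of -0.23. Of the 26, 5 did not overlap, all lower, where 2.70% of all autosomal genes did so. Egr1, an immediate early transcription factor, had 24.4, 10.4 and 20.98 CPM against 26.1, 75.8, 118 and 33.4 CPM (-1.76 ± 0.76). Fos had 180.3, 134 and 203 CPM against 271, 342, 214 and 624 CPM (-1.07 ± 0.54). Dnaja1, an Hsp70 cochaperone, had 1016, 1171 and 1262 CPM against 3177, 1544, 1480.3 and 1614 CPM (-0.77 ± 0.35), and Dnajb1 (-0.60 ± 0.55) and Rgs1 (-0.64 ± 0.47) were the others of these 5. Hspa8, the constitutive Hsp70 chaperone, had 81.8, 120.2 and 99.3 CPM against 1001, 315, 68.6 and 465 CPM (-2.20 ± 0.86), with WT-labelled replicate 3 below all Flox-labelled libraries.

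Genes of T cell receptor and NF-kB activation gave 11 higher and 20 lower of 31 (median -0.16), with 4 members without overlap, all lower, beside 2.70% of all autosomal genes. Nfkb1, the p105/p50 subunit, had 73.2, 94.7 and 101 CPM against 253, 112, 287 and 492 CPM (-1.67 ± 0.62). Nfkb2, the p100/p52 subunit, went the other way at 217, 139 and 514 CPM against 97.8, 78.1, 150.2 and 54.04 CPM (1.61 ± 0.65). Egr2, induced by T cell receptor signals, was low at 0.461, 0.809 and 1.17 CPM against 3.73, 2.605, 2.12 and 2.54 CPM (-1.74 ± 0.47). Egr1, given above, and Bcl10 (-0.67 ± 0.47) were the other two.

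TGF-beta receptors and response genes had 6 members higher and 13 lower of 19, with a median of -0.51, the lowest among the pathway lists, and no member without overlap. Ltbp1, a latent TGF-beta binding protein, had 1.75, 0.924 and 0.586 CPM against 688, 0.289, 882 and 6.03 CPM (-8.48 ± 2.73), so 2 of the 4 WT-labelled libraries carried the difference. Ski, a repressor of the pathway, had 17.7, 63.9 and 19.5 CPM against 17.3, 218, 299 and 679 CPM (-3.17 ± 1.20), with WT-labelled replicate 1 among the lowest libraries. Smurf1, a ubiquitin ligase that degrades the receptor, had 189.9, 9.36 and 279.7 CPM against 4.92, 5.79, 14.2 and 5.82 CPM (4.38 ± 1.11), high in Flox-labelled replicates 1 and 3. DESeq2 called all 3 (adjusted p 4.5e-05, 0.0467 and 0.00102) and edgeR none (adjusted p 0.584). Over all autosomal genes DESeq2 called 2.51%, where genes without an adjusted p count as not called. For Ltbp1, Ski and Smurf1, 1 library held 55.8, 51.7 and 54.9% of the summed CPM.

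Inhibitory receptors and resting T cell genes were near balance. Of 15 inhibitory receptors, 9 were higher and 6 lower (median 0.12). Cd200, a ligand of an inhibitory receptor on myeloid cells, had 221, 8.78 and 153 CPM against 1.86, 12.4, 7.69 and 7.72 CPM (4.09 ± 1.13; adjusted p = 0.584 in edgeR and 0.00345 in DESeq2), with Flox-labelled replicate 2 inside the WT-labelled range. Lag3 had 70.2, 190.0 and 31.9 CPM against 37.97, 54.3, 36.1 and 49.6 CPM (1.13 ± 0.70). Of 17 resting T cell genes, 9 were higher and 8 lower (median 0.054). S1pr1, the receptor for exit from tissue, had 5.99, 8.43 and 10.6 CPM against 10.3, 39.6, 67.2 and 231 CPM (-3.38 ± 1.12), with WT-labelled replicate 1 level with the Flox-labelled libraries and replicate 4 far above.

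The medians of the metabolic and housekeeping lists ran from -0.21 to 0.11, beside -0.057 over all autosomal genes. Medians were -0.037 for 22 glycolysis and hypoxia genes, -0.18 for 27 nuclear genes of oxidative phosphorylation, -0.21 for 25 genes of cholesterol and fatty acid synthesis and -0.15 for 24 genes of apoptosis and p53. Acaca, the first enzyme of fatty acid synthesis, had 3.32, 3.58 and 3.32 CPM against 139, 18.9, 19.6 and 4.86 CPM (-3.73 ± 1.22), with 72.1% of the summed CPM in WT-labelled replicate 1. TNF receptor superfamily genes had a median of -0.020 over 15 members. Of 30 cytoplasmic ribosomal protein genes, 23 were higher and 7 lower with a median of 0.11. Members without overlap were 1 higher and 2 lower for oxidative phosphorylation, 2 lower for cholesterol and fatty acid synthesis and 2 higher for ribosomal proteins. Over all autosomal genes 2.46% were higher and 2.70% lower without overlap.

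**Figure D4:**
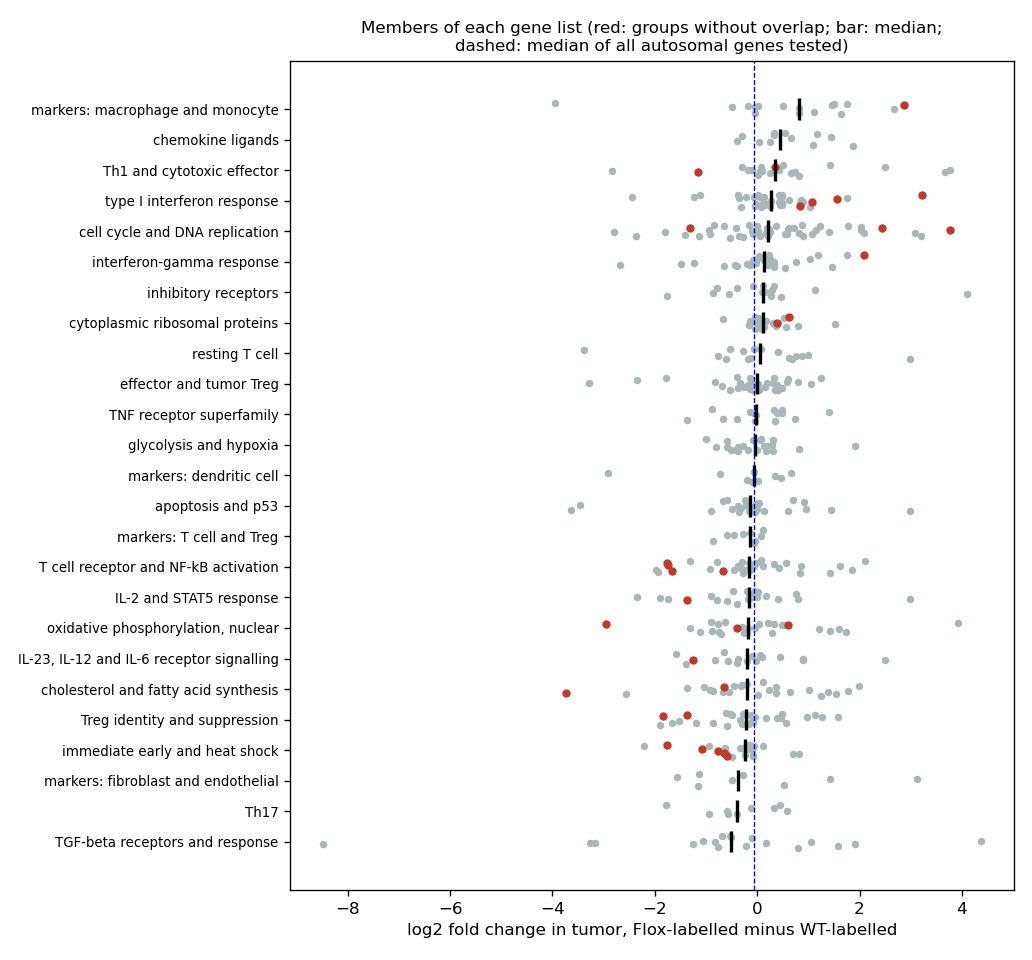
Log2 differences (horizontal axis, Flox-labelled minus WT-labelled) of the tested autosomal members of each gene list in tumor Tregs: each point is 1 gene, red where the groups do not overlap, the bar is the list's median, and the dashed line is the median over all autosomal genes, -0.057. Medians of the lists shown, those with at least 5 tested members, run from -0.51 (TGF-beta) to 0.81 (macrophage markers), and single members spread far wider than the medians.

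Markers of other cell types were measured because a sort can let some through, and in bulk RNA fewer cells of a type and less RNA per cell cannot be told apart. Macrophage and monocyte markers had 11 members higher and 5 lower of 16 tested, with a median of 0.81. Their summed level was 301 to 658 CPM among Flox-labelled libraries and 180.0 to 509 CPM among WT-labelled ones, so the ranges overlapped. At an unadjusted p under 0.05 there were 4 higher members of 16, beside 5.0% of all autosomal genes, 1 of them Cd68, given above. Itgam (CD11b) had 9.41, 1.96 and 8.199 CPM against 3.73, 1.06, 2.25 and 0.7402 CPM (1.76 ± 0.72). Fn1, a matrix protein gene, had 81.2, 48.5 and 161 CPM against 32.7, 23.3, 51.98 and 16.4 CPM (1.64 ± 0.68), and Csf1r, the receptor for the macrophage growth factor, had 0.922, 1.62 and 9.56 CPM against 0.508, 0.675, 1.33 and 0 CPM (2.68 ± 1.12). In these last 3 the groups overlapped. Whether macrophage RNA had a part in the interferon, chemokine or cell cycle values was not tested.

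B and plasma cell markers had the opposite order, with 4 lower of 4 tested. Their summed level was 43.9 to 48.97 CPM among Flox-labelled libraries and 53.9 to 268 CPM among WT-labelled ones, without overlap. Among the 30 lists, only IL-2 and Stat5 response shared this, and no sum was tested. Ighm, the IgM heavy chain, was the largest B and plasma cell marker in every library but WT-labelled replicate 3, with 43.3, 42.3 and 37.7 CPM against 47.1, 113, 48.00 and 261 CPM (-1.51 ± 0.79), and Ebf1, a B cell factor, was the largest there, with 92.8% of its own summed CPM. CD8 T and NK cell markers stayed between 3.81 and 10.5 CPM in sum in every library, and Cd8b1 had 6.09, 3.24 and 3.42 CPM against 3.898, 2.798, 1.33 and 2.75 CPM (0.66 ± 0.46). Dendritic cell markers summed to 171 to 199 CPM among Flox-labelled libraries and 109 to 252 CPM among WT-labelled ones. Fibroblast and endothelial markers summed to 138 to 225 CPM among Flox-labelled libraries and 172 to 364 CPM among WT-labelled ones, again with overlap. The T cell and Treg markers themselves summed to 4839.7 to 7316 CPM among Flox-labelled libraries and 5359 to 8859.7 CPM among WT-labelled ones. Of the neutrophil and mast cell markers, Kit, a growth factor receptor of mast cells, had 0.738, 1.502 and 276 CPM against 4.41, 81.2, 189.6 and 707 CPM, and Csf3r, the receptor for granulocyte growth factor, had 151 CPM in Flox-labelled replicate 2 and at most 0.586 CPM in any other library. That list summed to 1.48, 152 and 294 CPM against 5.76, 83.5, 189.7 and 707 CPM. Wherever the sum was high, Kit or Csf3r made up most of it and the other markers did not follow. Of the epithelial markers, Lgals4 had 158, 342 and 345 CPM against 0.847, 633, 535 and 248 CPM, near 0 in WT-labelled replicate 1 only. Lgals4 made up most of the list's summed level, which was 160, 345 and 346 CPM against 1.53, 635, 573 and 251 CPM. In spleen the same list summed to 342 to 891 CPM among Flox-labelled libraries and 501 to 649 CPM among WT-labelled ones, so the level was not particular to tumor. Pax5, the defining B cell factor, and Klrb1c, the NK cell receptor NK1.1, had 0 counts in every tumor library. Of the 13 neutrophil and mast cell markers 5, and of the 12 MC38 and epithelial markers 4, had no count in any tumor library.

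**Figure D5:**
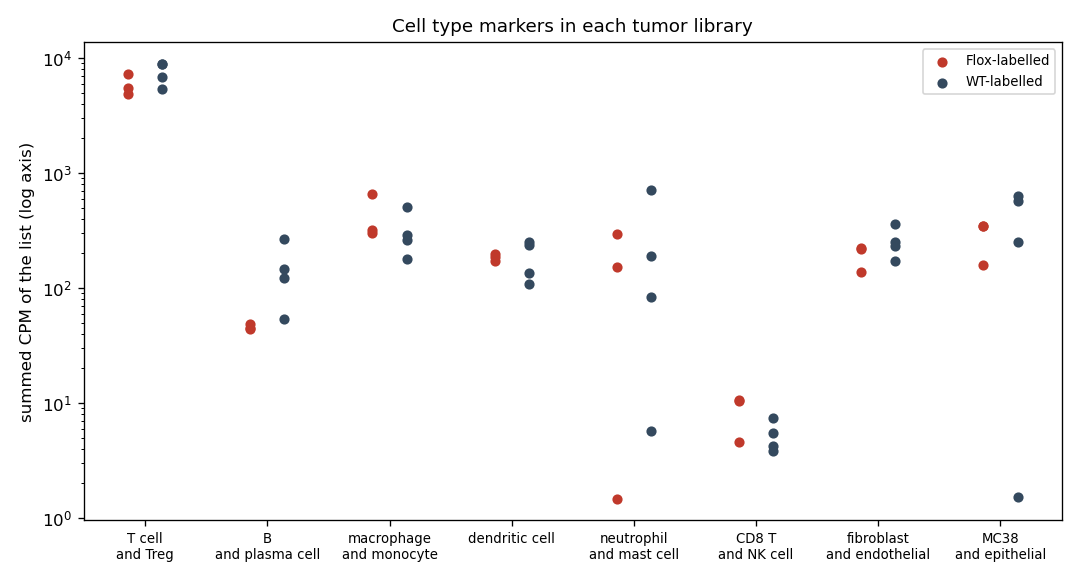
Summed CPM of the marker lists in each tumor library, on a logarithmic CPM axis, with 1 point per library coloured by label. The T cell and Treg sum stays near the top in all 7 libraries, and the macrophage sums of the groups overlap while the B and plasma cell sums do not.

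The same contrast in spleen gave 0 of 10271 autosomal genes called by edgeR (0.00%), 696 at an unadjusted p under 0.05 (6.78%) and 597 without overlap (5.81%). List medians there, beside -0.053 over all autosomal genes, were -0.19 for type I interferon, -0.33 for T helper 1 and cytotoxic, -0.58 for chemokine ligand, -1.21 for macrophage marker genes, and 0.039 for Treg identity and 0.052 for TGF-beta genes, all opposite in sign to the tumor. They were 0.21 for cell cycle, -0.33 for immediate early and heat shock and -1.37 for B and plasma cell marker genes, of the same sign as in the tumor. These spleen medians cover only the list members that could be tested in spleen. Among chemokine ligands, Ccl3, Ccl4, Ccl7, Cxcl9 and Cxcl16 were tested in the tumor but not in spleen. The spleen median of -0.58 is the value of Cxcl2, which ran from 1.04 to 2.83 CPM there. For chemokine ligands the opposite signs therefore compare different sets of genes, at low levels in spleen. None of these list differences between tissues was tested. The difference between the tumor and spleen contrasts was tested gene by gene as an interaction, with all 14 libraries taken as independent. The sources used here do not say whether same-numbered tumor and spleen libraries came from 1 mouse. It called 0 of 11264 genes in edgeR (0.00%; smallest adjusted p 0.395), with 1220 at an unadjusted p under 0.05 (10.8%) and 141 called by DESeq2. Jak2 had a spleen difference of 1.14 ± 0.52, and its tumor difference was -2.38 ± 0.66 from it (adjusted p = 0.425 in edgeR). Foxp3, Ikzf2 and Il2ra had spleen differences of -0.39 ± 0.39, 0.035 ± 0.37 and 0.23 ± 0.22. Of the genes tested in the tumor, Dtx4, a Notch pathway ubiquitin ligase, had the smallest interaction p-value, followed by Ankrd55, given above, and Itpkc, an inositol phosphate kinase. For Dtx4 the spleen difference was 4.63 ± 0.59 and the tumor difference -0.0039 ± 0.56, and for Itpkc they were -4.77 ± 0.78 and -0.22 ± 0.53, so both were spleen differences without a like one in the tumor libraries.

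Few genes kept their groups apart in both tissues. Of 9334 autosomal genes tested in both, 487 had no overlap in the tumor and 553 in the spleen, and 33 in both (6.78% of the tumor genes and 5.97% of the spleen genes). These shares were near those over all 9334 genes, of which 5.92% had no overlap in the spleen and 5.22% in the tumor, so the count of 33 is not a result about shared genes. Of these 33, 22 had the same direction (8 higher, 14 lower) and 11 the opposite. Fcho2 was lower in both (spleen -2.96 ± 1.03), as was Fos (spleen -0.70 ± 0.26). The hyaluronan receptor gene Hmmr was higher in both (tumor 2.17 ± 0.56, spleen 1.75 ± 0.48). Ifit1, among the 11 opposite ones, was higher in the tumor (1.07 ± 0.51) and lower in the spleen (-0.85 ± 0.38). These genes were singled out after their values were seen. The tumor and spleen libraries carry the same labels and the same division in sex-linked reads, so label and sex-linked reads cannot be told apart here either.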

How the data were processed

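Bulk polyA RNA from Foxp3-YFP-sorted Tregs was sequenced from libraries made with an ultra-low input method, per the labels' protocols. The authors deposited 1 table of raw counts per gene, whole numbers without normalization. The build was mm10, per the submitters' processing notes; aligner, counting tool, annotation and strand setting were not given in the sources used here. Of 27179 gene identifiers, 25275 matched RefSeq GRCm38.p6, which gave chromosomes; unmatched genes held 1.25 to 1.78% of counts and stayed out of the autosomal set, which held 95.0 to 95.7% of counts. Totals and the precision they give are in the results.

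The 7 tumor libraries were fitted with edgeR 4.0.16 (R 4.3.3): trimmed-mean scaling, filterByExpr by group, the quasi-likelihood F test and Benjamini-Hochberg adjustment over all 10777 genes, with a threshold of 0.05. Standard errors are the log2 difference divided by the root of F. DESeq2 1.42.0, limma 3.58.1, other scaling and filters, a replicate block, a fit of autosomal genes alone or of all 14 libraries, and leaving out each library were alternatives. The script was tested on simulated data. Il23r was compared by an exact permutation test. Members and gene lists were chosen with earlier results of these data known. Named genes were a set of stability and receptor genes, up to 10 per direction with the smallest p, no overlap and an average log2 CPM of 2 or more, up to 3 per list, and list members that DESeq2 called; not every gene the rule gave is printed, some genes are not reported here, and members counted as without overlap are named beside their count in some lists. Replicate numbers did not clearly pair the tumor libraries, and no 2 tumor libraries of a group were alike within sampling noise. Correlations over genes did not pair same-numbered tumor and spleen libraries either.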

Additional observations from a re-analysis of the deposited data

Results flagged for a closer look

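In the 4 WT-labelled tumor libraries, 13 of 143 values checked (9.09%) had 1 library whose gap to the nearest other exceeded Dixon's 95% critical value, taken on log2(CPM + 0.5); chance flags about 1 in 20 groups. WT-labelled replicate 2 stood apart for Il23r (0.193 CPM, 0 in the others), Ddx3y (113 CPM, 0 to 0.339 in the others), Nucks1 (1547 CPM, 981 to 1010.2 in the others), Mcm5 (145 CPM, 21.9 to 27.6 in the others) and Gbp4 (73.3 CPM, 59.5 to 61.5 in the others). The Il23r flag rests on 2 counts. With 0 in the others any count would have been flagged, so that flag carries no weight. WT-labelled replicate 3 stood apart for Il1rl1 (396 CPM, 18.7 to 23.2 in the others), Irf4 (259 CPM, 23.9 to 35.8), Iigp1 (139 CPM, 52.0 to 54.3) and Smurf1 (14.2 CPM, 4.92 to 5.82). WT-labelled replicate 1 was high for Dnaja1 (3177 CPM, 1480.3 to 1614 in the others). It was low for Zbp1 (57.3 CPM, 139 to 163 in the others), for Lgals4 (0.847 CPM, 248 to 633 in the others) and so for the summed MC38 and epithelial markers (1.53 CPM, 251 to 635 in the others), most of which is Lgals4. Groups of 3 were not checked.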

How the results depend on the processing

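Without any 1 library, with other scaling or filters, with autosomal genes alone, with the replicate block or with all 14 libraries in 1 fit, edgeR called 0 autosomal genes in the tumor. DESeq2 called 255 (3711 autosomal genes had no adjusted p there) and voom 1, and DESeq2 called 141 for the tumor minus spleen difference, where voom called 0. Before adjustment, edgeR had 508 higher and 308 lower genes with p under 0.05, and these numbered 221 and 166 in voom, 776 and 506 with no filter, 314 and 185 with at least 5 CPM in 3 libraries, and 788 and 766 with all 14 libraries; DESeq2 gave 564 and 645, which moves the share of higher genes from 62.3% to 46.7%. Leaving out 1 library gave 322 to 558 higher and 112 to 394 lower. Genes without overlap (250 higher, 274 lower) became 398 higher with no filter, 177 lower with the 5 CPM filter, and 455 to 730 higher and 455 to 729 lower without 1 library, since fewer samples overlap less often.

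Replicate numbers did not pair the tumor libraries (correlations of same-numbered libraries 0.0494, 0.05598 and -0.0184), and only Flox-labelled replicates 1 and 2 correlated best with their own number. With the replicate block 136 genes were higher and 141 lower at an unadjusted p under 0.05 and 0 were called. Same-numbered tumor and spleen libraries of 1 label did not deviate together over autosomal genes either (correlations -0.0275 to 0.0544), though Ddx3y was raised in WT-labelled replicate 2 of both tissues, and no tumor library correlated best with its own number. A block on these numbers, chosen after seeing the data, gave 0 called genes for the tumor minus spleen difference and 437 at an unadjusted p under 0.05, against 1220 without it.

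The Il23r difference in CPM was 0.425 to 0.638 without 1 library, and its exact permutation p then missed 0.05 because fewer splits exist. Of 111 genes named and tested, 95 kept 1 sign under all alternatives run and 16 did not. Many were named for a small p or for groups without overlap, which hardly lets a sign turn. The count of 95 therefore partly reflects how the genes were chosen. Stat4 was -0.076 in voom and -0.31 with the block, Cxcl9 -0.33 with the block, Lgals4 0.59 in voom and 0.78 with the block, and Dtx4 0.0016 in DESeq2, 0.16 in voom and 0.018 with no filter. Without 1 library the ranges were -0.15 to 4.23 for Cx3cr1, -0.13 to 0.68 for Cxcl10, -0.96 to 1.56 for Cxcl9, -0.20 to 0.35 for Dtx4, -0.31 to 0.18 for Foxp3, -0.88 to 0.031 for Gadd45a, -0.047 to 0.94 for Ifng, -0.046 to 1.15 for Il10, -0.54 to 4.34 for Il18rap, -0.92 to 0.043 for Itpkc, -7.75 to 0.042 for Kit, -0.72 to 0.11 for Lgals4, -1.24 to 0.83 for Stat4, -0.21 to 0.033 for Tgfb1, -0.15 to 0.057 for Tnfrsf18 and -0.90 to 0.32 for Tyk2.

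List medians moved with no filter to 0.13 (T helper 17), 0.34 (TNF receptors), -0.33 (TGF-beta), -0.015 (oxidative phosphorylation) and 0.53 (fibroblast markers), and with the 5 CPM filter to 0.12 (T helper 1) and 0.33 (TNF receptors). Without 1 library they ran -0.35 to -0.13 for Treg identity and suppression, -0.066 to 0.17 for effector and tumor Treg, -0.45 to -0.026 for IL-23, IL-12 and IL-6 receptor signalling, 0.18 to 0.40 for T helper 1 and cytotoxic effector, -0.59 to -0.078 for T helper 17, -0.023 to 0.75 for chemokine ligands, -0.068 to 0.26 for TNF receptor superfamily, -0.38 to -0.10 for IL-2 and STAT5 response, -0.83 to -0.23 for TGF-beta receptors and response, 0.021 to 0.24 for interferon-gamma response, 0.17 to 0.42 for type I interferon response, -0.40 to 0.078 for T cell receptor and NF-kB activation, 0.020 to 0.41 for cell cycle and DNA replication, -0.37 to 0.051 for apoptosis and p53, -0.23 to 0.023 for glycolysis and hypoxia, -0.21 to 0.15 for oxidative phosphorylation, -0.58 to 0.053 for cholesterol and fatty acid synthesis, -0.49 to -0.14 for immediate early and heat shock, 0.22 to 1.34 for macrophage and monocyte markers and -1.35 to 0.11 for fibroblast and endothelial markers. The cause of these moves was not tested.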
